A study of Mus musculus with 6 samples.

Results

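The 10 Polycomb repressive complex genes described here are Ezh1, Ezh2, Eed, Suz12, Jarid2, Rnf2, Bmi1, Cbx2, Cbx7 and Cbx8. They were chosen by symbol from a list of Polycomb subunits, and each matched 1 of the 53801 genes of a read count table from mouse embryo brain. RNA-seq was done on the whole brain of 6 C57BL/6 embryos taken at E16.5. Of these, 3 were Bahd1-/- (Bahd1-KO) and 3 were Bahd1+/+ (Bahd1-WT). The knock-out is a homozygous null mutation, and such mice were obtained by mating heterozygous carriers. BAHD1 is a scaffold protein of gene-silencing complexes. The study also describes it as a reader of H3K27me3, the Polycomb histone mark explained below. The comparison described here asked whether transcripts of Polycomb genes differed in its absence.

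Polycomb proteins act in 2 families of complexes. Polycomb repressive complex 2 (PRC2) places methyl groups on lysine 27 of histone H3 (H3K27me3), through EZH2 or its paralog EZH1 held in a core with EED and SUZ12. Polycomb repressive complex 1 (PRC1) ubiquitinates histone H2A through the RING proteins, and its CBX subunits read H3K27me3. In the developing brain both complexes hold genes of other lineages silent, and EZH2 is known as the form of dividing progenitors while EZH1 is kept in cells that have left the cycle.

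Levels are given as counts per 1e+06 counts of the embryo (CPM), scaled by TMM (trimmed mean of M-values). Values of an embryo are listed in the order of replicates 1, 2 and 3. Log2 fold changes are Bahd1-KO over Bahd1-WT, with tests from edgeR's quasi-likelihood fit over the 24739 genes that reached 10 counts in all. Libraries held 61.7 to 91.8 times 1e+06 counts, and member counts ran from 234 for Cbx8 to 18572 for Rnf2, so that counting error was small beside the spread between embryos. In such bulk samples, fewer cells of a type and less RNA per cell cannot be told apart.

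The genotype labels were checked on Bahd1 itself (chr2:118900377-118924528, plus strand, GRCm38). Bahd1-KO embryos had 2, 10 and 6 counts of it, while Bahd1-WT embryos had 1971, 3102 and 3470, with mean levels of 0.0867 ± 0.0488 and 30.0 ± 8.2 CPM (SD, n = 3 each). All 6 embryos carried 15 to 53 counts of Xist and 2401 to 8740 of 4 Y-linked genes. The library labelled Bahd1-KO replicate 3 stood apart from the other 5. Genes overlapping ribosomal RNA, mitochondrial genes and small RNA genes took 49.8% of its counts against 3.12 to 6.28%. The summed level of 10 neuron markers was 2528 CPM in it against 8696 to 10753.5 in the others, and that of 8 neural progenitor markers was 831 against 1283 to 1544, with 6 of 10 and 6 of 8 markers lowest there. The neuron marker Dcx was at 33.0 CPM against 1865 to 3713, whereas Snap25 was at 910 against 154 to 285. All 8 lung markers were highest in this library (sum 1655 against 14.8 to 28.4), as were all 8 skeletal muscle markers (79.9 against 2.58 to 11.4), 7 of 8 meninges and connective tissue markers (2789 against 427 to 507) and 8 of 12 dividing progenitor markers (1572 against 617 to 850). Blood (429 against 133 to 594), cartilage and bone (75.9 against 43.6 to 73.8) and microglia (76.6 against 41.2 to 62.6) were nearer to the other embryos. Its markers thus differed from those of the other 5 whole-brain libraries, and the source of this was not tested. The study named this embryo as a possible outlier and also ran its comparison without it. Genotype comparisons below are given with and without this library.

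All 10 members were measured in all 6 embryos, at levels that differed widely between genes. To compare genes, levels were divided by kilobases of exon, which does not correct for GC content or for the isoforms used. In this unit Bahd1-WT embryos had most of the PRC1 ubiquitin ligase subunit Rnf2 (40.0 ± 6.79 CPM per kb, SD, n = 3) and least of Cbx7 (0.969 ± 0.195), a 41.2-fold span. Bmi1, a PCGF subunit that pairs with the RING proteins, followed at 32.2 ± 5.85. The core PRC2 genes Suz12 (21.5 ± 4.33) and Ezh2 (18.2 ± 2.60) came next. Lower levels were those of Jarid2, a PRC2 cofactor (9.01 ± 0.185), of the H3K27me3 reader Eed (6.84 ± 1.09), of the chromodomain gene Cbx2 (5.13 ± 1.69), of Ezh1 (4.60 ± 0.624) and of Cbx8 (4.06 ± 0.498). Ranges of neighbours in this order overlapped between Rnf2 and Bmi1, Suz12 and Ezh2, Eed and Cbx2, Cbx2 and Ezh1, and Ezh1 and Cbx8, and the other neighbours did not overlap over the 3 embryos. GC content of the longest transcript ran from 39.5% (Rnf2) to 44.4% (Ezh2) in Rnf2, Bmi1, Suz12 and Ezh2. In the other members it ran from 47.8% (Eed) to 57.6% (Cbx2). The part of GC content in this order was not tested.

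**Figure D1:**
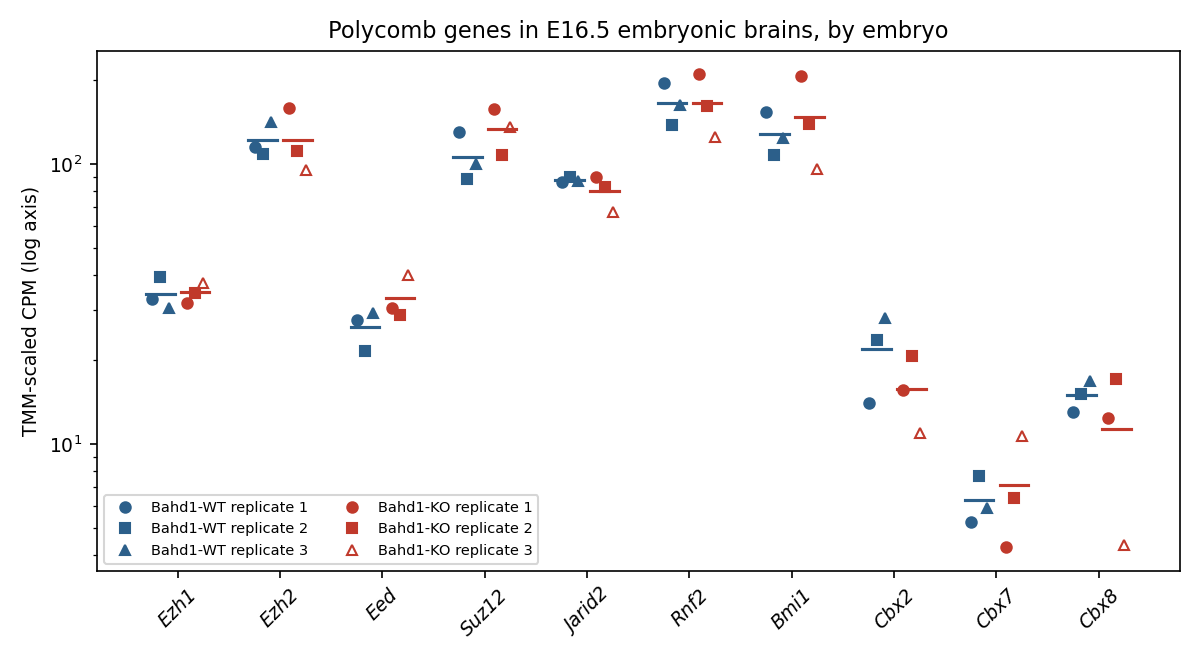
Level of each Polycomb gene (TMM-scaled CPM, log axis) in each of the 6 embryos, with Bahd1-WT and Bahd1-KO embryos marked apart and horizontal lines at the mean of each genotype. For every gene the 2 genotypes overlap, and Bahd1-KO replicate 3 is lowest for Cbx8, at 4.34 CPM against 12.4 to 17.1 in the others.

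The promoters of the paralogs Ezh1 and Ezh2, and that of Suz12, are shown because Ezh2 and Suz12 were the 2 members with letters of the E2F type (cell-cycle factors) in this window and Ezh1 had none. Capitals mark the match. Each window holds 250 bases before to 50 bases after the transcript start, from RefSeq on GRCm38.p6, at chr11:101226414-101226713 (minus strand), chr6:47594981-47595280 (minus strand) and chr11:79992856-79993155 (plus strand), 5′ to 3′.
Ezh1: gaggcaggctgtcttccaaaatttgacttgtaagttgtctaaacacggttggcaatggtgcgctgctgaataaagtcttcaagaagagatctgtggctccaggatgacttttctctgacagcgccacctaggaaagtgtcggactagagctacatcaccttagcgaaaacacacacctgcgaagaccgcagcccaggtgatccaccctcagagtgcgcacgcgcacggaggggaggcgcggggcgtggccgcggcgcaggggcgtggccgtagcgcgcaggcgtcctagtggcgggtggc
Ezh2: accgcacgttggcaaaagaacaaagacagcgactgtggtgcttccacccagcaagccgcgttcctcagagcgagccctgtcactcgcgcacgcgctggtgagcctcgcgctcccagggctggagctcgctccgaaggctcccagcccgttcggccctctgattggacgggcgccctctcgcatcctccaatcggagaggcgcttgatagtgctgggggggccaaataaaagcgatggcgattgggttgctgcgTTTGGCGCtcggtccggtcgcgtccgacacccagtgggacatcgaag
Suz12: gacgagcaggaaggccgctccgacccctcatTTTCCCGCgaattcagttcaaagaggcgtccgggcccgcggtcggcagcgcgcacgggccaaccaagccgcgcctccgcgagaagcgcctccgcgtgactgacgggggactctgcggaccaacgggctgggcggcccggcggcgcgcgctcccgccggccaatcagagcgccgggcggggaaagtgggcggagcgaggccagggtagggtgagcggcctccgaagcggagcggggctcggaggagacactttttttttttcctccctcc

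The letters searched on both strands were TTTCCCGC, TTTCGCGC, TTTGCCGC and TTTGGCGC. The match began 4 bases into the transcript in Ezh2 and 219 bases before its start in Suz12. Of all 32544 distinct promoters of the table, 2.28% held 1 of these matches. A promoter was found for 9 members, not for Cbx2, and their 10 windows held 17 to 41 CpG dinucleotides against a median of 7 over all promoters, of which 31.6% held at least 17. These are descriptions of letters and not of binding.

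Transcripts of the PRC2 core showed no difference by genotype that exceeded the spread between embryos. Ezh2 (chr6:47530139-47595341, minus strand), the main H3K27 methyltransferase, was at 158, 111 and 95.2 CPM in Bahd1-KO embryos, compared with 115, 109 and 142 CPM in Bahd1-WT embryos. The highest and the lowest value were both Bahd1-KO embryos, so that the Bahd1-WT values lay within the Bahd1-KO range. The fold change was 0.997, with a 95% interval of 0.640 to 1.55 (adjusted p = 0.996, edgeR). Without Bahd1-KO replicate 3 it was 1.09 (0.763 to 1.56).

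Ezh1 (chr11:101191115-101226463, minus strand), its less active paralog, was at 31.9, 34.7 and 37.6 CPM in Bahd1-KO embryos, compared with 32.8, 39.4 and 30.5 CPM in Bahd1-WT embryos. Its values spread 1.29-fold from lowest to highest, with or without Bahd1-KO replicate 3, the least of the 10 members over all 6 embryos, whereas without that embryo Jarid2 spread least (1.09-fold). Its fold change was 1.01 (0.696 to 1.48; adjusted p = 0.979, edgeR), and 0.964 (0.678 to 1.37) without Bahd1-KO replicate 3. The ratio of Ezh2 to Ezh1 per kb was 5.53, 3.56 and 2.82 in Bahd1-KO embryos, compared with 3.92, 3.07 and 5.17 in Bahd1-WT embryos. The means were 3.97 ± 1.398 and 4.05 ± 1.06 (SD, n = 3 each), and 4.54 ± 1.39 (n = 2) in Bahd1-KO without replicate 3, so that Ezh2 exceeded Ezh1 in all 6 embryos and the genotypes overlapped. The ratio is not corrected for transcript GC content, which was 44.4% in Ezh2 and 51.2% in Ezh1.

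Eed (chr7:89954654-89980983, minus strand), the subunit that binds H3K27me3 and stimulates the enzyme, was at 30.6, 28.8 and 40.2 CPM in Bahd1-KO embryos, compared with 27.7, 21.5 and 29.4 CPM in Bahd1-WT embryos. Bahd1-KO replicate 3 was the highest and Bahd1-WT replicate 2 the lowest, and Bahd1-KO replicate 2 lay below Bahd1-WT replicate 3. Its fold change was 1.27 (0.828 to 1.94; adjusted p = 0.696, edgeR), and 1.12 (0.781 to 1.62) without replicate 3. Suz12 (chr11:79993106-80034123, plus strand), the scaffold of the core, was at 157, 107 and 136 CPM in Bahd1-KO embryos, compared with 130, 88.3 and 100 CPM in Bahd1-WT embryos. Replicate 1 was highest within both genotypes. The fold change of Suz12 was 1.26 (0.819 to 1.93; adjusted p = 0.697, edgeR), and 1.23 (0.828 to 1.83) without replicate 3.

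Jarid2 (chr13:44729474-44921643, plus strand), which helps to bring PRC2 to chromatin, was at 89.4, 82.5 and 67.2 CPM in Bahd1-KO embryos, compared with 86.2, 89.6 and 86.9 CPM in Bahd1-WT embryos. Bahd1-KO replicate 3 was the lowest, and the other 5 lay within 1.09-fold of each other. Its fold change was 0.910 (0.637 to 1.30; adjusted p = 0.838, edgeR), and 0.972 (0.729 to 1.30) without that embryo.

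The PRC1 genes also showed no difference by genotype past the threshold. Rnf2 (chr1:151458004-151500955, minus strand), which encodes the ubiquitin ligase RING1B, was at 209, 161 and 124 CPM in Bahd1-KO embryos, compared with 194, 138 and 163 CPM in Bahd1-WT embryos. Bmi1 (chr2:18677018-18686629, plus strand), its partner and a known factor of neural stem cell renewal, was at 206, 139 and 95.5 CPM in Bahd1-KO embryos, compared with 153, 107 and 124 CPM in Bahd1-WT embryos. For both genes Bahd1-KO replicate 1 was the highest and replicate 3 the lowest of all 6. The fold change of Rnf2 was 0.998 (0.634 to 1.57; adjusted p = 0.997, edgeR), and that of Bmi1 1.15 (0.669 to 1.97; adjusted p = 0.843). Without replicate 3 they were 1.107 (0.778 to 1.57) and 1.33 (0.903 to 1.96).

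Among the CBX genes, whose chromodomain proteins bring PRC1 to H3K27me3, Cbx2 (chr11:119022962-119031270, plus strand) was at 15.6, 20.6 and 11.0 CPM in Bahd1-KO embryos, compared with 14.02, 23.4 and 28.1 CPM in Bahd1-WT embryos. Cbx8 (chr11:119036305-119040969, minus strand) was at 12.4, 17.1 and 4.34 CPM in Bahd1-KO embryos, compared with 13.0, 15.02 and 16.7 CPM in Bahd1-WT embryos. Cbx7 (chr15:79915807-79971119, minus strand) was at 4.27, 6.43 and 10.7 CPM in Bahd1-KO embryos, compared with 5.26, 7.70 and 5.89 CPM in Bahd1-WT embryos. Bahd1-KO replicate 3 was thus lowest for Cbx2 and Cbx8 and highest for Cbx7, at 0.538, 0.292 and 1.81 times the mean of the other 5. The fold changes were 0.720 for Cbx2 (0.393 to 1.32; adjusted p = 0.697, edgeR), 0.755 for Cbx8 (0.342 to 1.67; adjusted p = 0.778) and 1.13 for Cbx7 (0.575 to 2.24; adjusted p = 0.887). Without that embryo they were 0.824 (0.484 to 1.402), 0.982 (0.647 to 1.49) and 0.848 (0.515 to 1.395), so that Cbx7 changed direction.

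Of the 10 members, 0 passed the adjusted threshold of 0.05, against 0.00404% of all genes tested (1 gene, Bahd1). At an unadjusted p under 0.05 there were also 0, against 4.67% of all genes (4.51% higher and 0.166% lower in Bahd1-KO), and 0 had genotypes that did not overlap, against 6.71%. DESeq2 called 0 members as well, against 0.0334% of all genes. The fitted change was above 0 for 5 members and below 0 for 5, against 53.8% of all genes above 0, and its median was 0.01 on the log2 scale against 0.06 over all genes. Without Bahd1-KO replicate 3 the 3 counts were again 0, against 0.0171%, 1.48% (1.09% higher and 0.386% lower) and 10.7% of all genes, and the median was 0.05 against -0.01. Missing the threshold does not show that the levels were equal. With all embryos, the 95% intervals of the 10 members ran from 0.342 to 2.24-fold, and without replicate 3 from 0.484 to 1.96-fold.

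**Figure D2:**
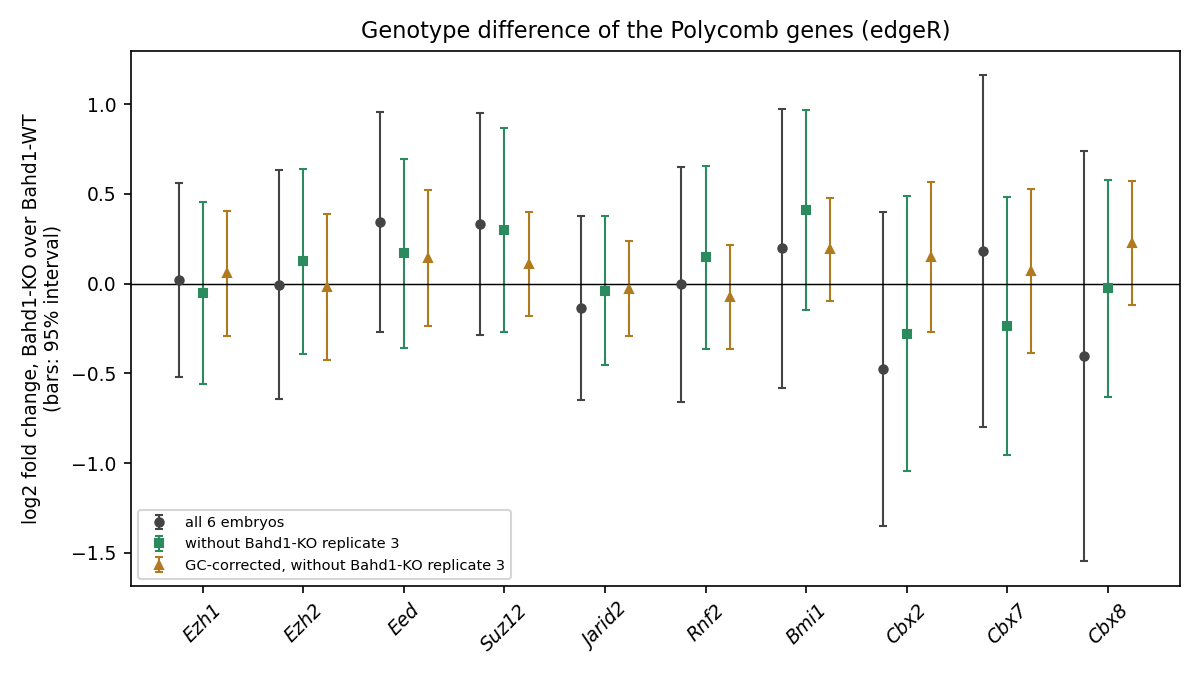
Log2 fold change of each member, Bahd1-KO over Bahd1-WT, with its 95% interval, in 3 fits: all 6 embryos, without Bahd1-KO replicate 3, and with a correction for GC content besides. The third fit was added after the data were seen and is 1 of 6 such additions. Every interval includes 0.

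In both genotypes, replicate 1 differed from the embryos it was set against in many of the same Polycomb genes and in the same direction. Here the log2 level of Bahd1-KO replicate 1 was set against replicate 2, and that of Bahd1-WT replicate 1 against the mean of replicates 2 and 3. Suz12, Rnf2, Bmi1 and Eed were higher in replicate 1 of both genotypes, and Ezh1, Cbx2, Cbx7 and Cbx8 lower in both, whereas Ezh2 and Jarid2 differed in sign. Bmi1 differed by 0.57 and 0.41, and Cbx2 by -0.39 and -0.85. Over all 44 Polycomb genes measured, 39 had the same sign in both, 17 higher with a median transcript GC content of 41.7% and 22 lower with 54.6%. Across these genes, which are not independent replicates, the differences correlated with GC content at r = -0.91 in both genotypes. Across the 13754 protein-coding genes with a mean level of at least 1 CPM they correlated at -0.77 and -0.78, with 82.6% of genes of the same sign. The points of each correlation share 2 or 3 libraries, and the source of this pattern was not tested.

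**Figure D3:**
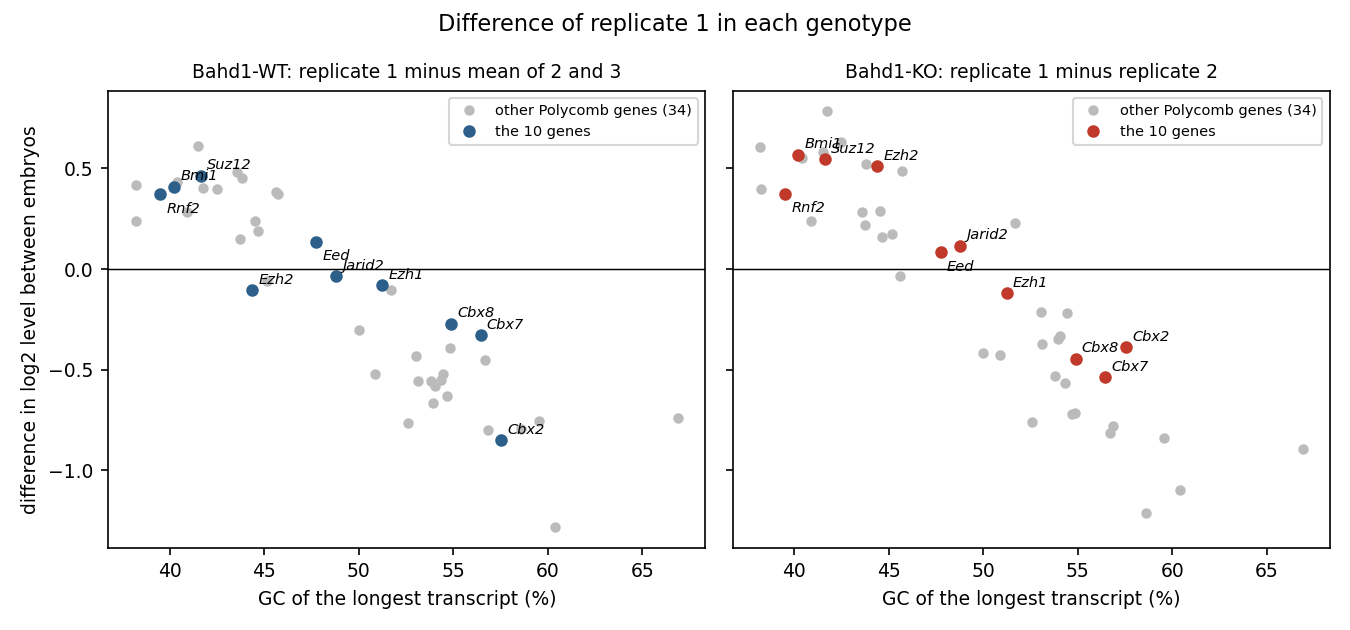
Difference in log2 level (y axis) of Bahd1-WT replicate 1 from the mean of replicates 2 and 3, and of Bahd1-KO replicate 1 from replicate 2 alone, against transcript GC content in percent (x axis) for 44 Polycomb genes. In both, genes of low GC content such as Bmi1 lie above 0 and genes of high GC content such as Cbx2 lie below it.

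A GC correction, made embryo by embryo, was therefore tried after the data had been seen. With all 6 embryos it left the members at 0.853 to 1.65-fold, and the interval of Cbx7 then reached 3.51-fold, wider than before. Together with the leave-out of Bahd1-KO replicate 3 it gave 0.948 to 1.17-fold, with intervals from 0.745 to 1.49-fold, the narrowest span among the fits whose intervals are given here. Since both steps were chosen with these values in view, those intervals are a description and not a bound fixed in advance. Under the GC correction Cbx2 was above 0 on the log2 scale (0.08 with all embryos and 0.15 without replicate 3), opposite to its sign before.

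Several Polycomb subunits are encoded by paralogs that replace each other in the complex, and their shares of a family's summed level per kb were computed in each embryo. In Bahd1-WT embryos Ezh2 made up 79.6% ± 4.18 (SD, n = 3) of the EZH pair, and Rnf2 91.6% ± 3.18 of the RING pair beside Ring1. Bmi1 (37.9% ± 6.04), Pcgf2 (27.03%) and Pcgf3 (22.8%) led the PCGF genes, with Pcgf1 at 5.96%, Pcgf6 at 5.20% and Pcgf5 at 1.14%. The share of Bmi1 was 44.7%, 33.0% and 36.0% in the 3 Bahd1-WT embryos. Of the summed level of the 4 CBX genes given here, Cbx6 had 48.1%, Cbx2 25.8%, Cbx8 21.0% and Cbx7 5.03%. In Bahd1-KO embryos 1 and 2, Ezh2 had 84.7% and 78.1%, Rnf2 96.5% and 92.2%, and Bmi1 51.1% and 40.7%, while Cbx6 had 43.9% and 48.7%, Cbx8 24.6% and 22.7%, and Cbx7 4.80% and 4.86%. In replicate 3 the shares of Ezh2, Rnf2 and Bmi1 were 73.8%, 94.5% and 43.2%, and those of the CBX genes were 63.9% Cbx6, 17.2% Cbx2, 11.0% Cbx7 and 7.89% Cbx8. The PHC genes, which encode the polymerizing subunits of PRC1, stood at 50.2% Phc1, 33.7% Phc2 and 16.0% Phc3 in Bahd1-WT. Phc3 was at 28.3%, 15.2% and 45.4% in Bahd1-KO embryos, compared with 24.5%, 13.3% and 10.2% in Bahd1-WT embryos. Bahd1-KO replicate 3 is the library with low neuron and high lung, muscle and connective tissue markers, and the part of those tissues in its shares was not tested. Shares are not corrected for transcript GC content, which was 43.8% in Phc3, 53.1% in Phc1 and 60.4% in Phc2. In both genotypes the shares of Rnf2, Bmi1 and Phc3 were larger in replicate 1 than in replicate 2. The part of the GC pattern above in these shares was not tested.

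**Figure D4:**
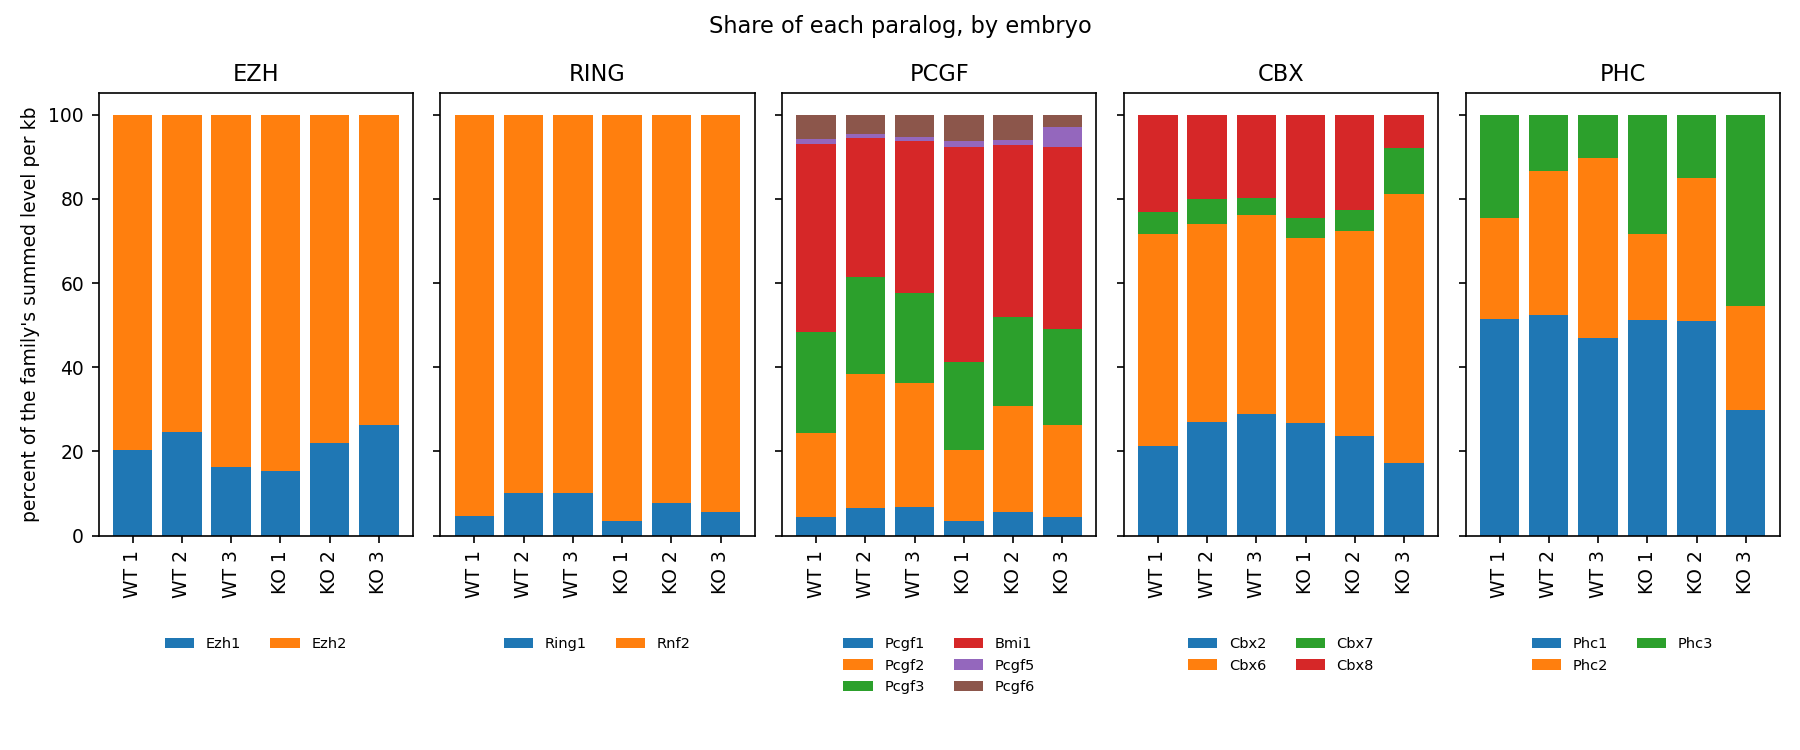
Share of each paralog in percent of its family's summed level per kb (y axis, from 0), stacked for each of the 6 embryos, for the EZH, RING, PCGF and PHC families and 4 CBX genes. Ezh2 and Rnf2 fill most of their pairs in every embryo, and Bahd1-KO replicate 3 has the smallest Cbx8 and the largest Phc3 share.

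The other genes of the pathway gave the same counts. Of 34 further Polycomb genes, 7 of PRC2, 20 of PRC1 and 7 erasers of the 2 marks, 0 passed the adjusted threshold (0.00404% of all genes) and 0 had an unadjusted p under 0.05 (4.67%). The fitted change was above 0 for 12 and below 0 for 22, against 53.8% of all genes above 0, with a median of -0.16 against 0.06. Without Bahd1-KO replicate 3 the first 2 counts were again 0 (0.0171% and 1.48% of all genes), and the change was above 0 for 15 and below 0 for 19, against 49.2% above 0, with a median of -0.11 against -0.01. The 3 highest were Pcgf5, a PRC1 subunit (0.81 ± 0.396, SE; adjusted p = 0.696, edgeR), Asxl2, part of an H2A deubiquitinase (0.56 ± 0.382), and Aebp2, a PRC2 cofactor (0.46 ± 0.295). The 3 lowest were Phc2 (-0.95 ± 0.508), Kdm2b, which binds unmethylated CpG DNA (-0.89 ± 0.610), and L3mbtl2, a PRC1 subunit (-0.74 ± 0.381). Without replicate 3 these 6 values were 0.36, 0.18, 0.15, -0.68, -0.45 and -0.51. With the GC correction they were 0.61, 0.38, 0.27, -0.31, -0.71 and -0.41 over all embryos, and 0.15, -0.020, -0.042, -0.24, -0.29 and -0.27 without replicate 3. Kdm2b was at 34.3, 58.5 and 9.21 CPM in Bahd1-KO embryos, compared with 42.8, 76.4 and 70.0 CPM in Bahd1-WT embryos, and was thus far lowest in replicate 3, at 0.163 times the mean of the other 5. Genotypes did not overlap for 1 of the 34 without that embryo, Pcgf6, which was higher in Bahd1-KO (32.2 and 26.2 against 24.7, 19.1 and 22.8 CPM). It was named after its values were seen, and its share of 1 in 34 stands beside 10.7% of all genes.

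Of 16 genes known to be silenced by Polycomb outside their own tissues, 10 had enough counts to be tested. Of these, Hoxa7, Pax9, Hand2 and Pax1 reached the minimum of 10 counts only through Bahd1-KO replicate 3, so that their direction was fixed by the filter and they enter no count or median here. The other 6 were Tbx5, Gata6, Foxf1, Cdkn2b, Sox17 and Gata4. The adjusted threshold was passed by 0 of these 6. Bahd1-KO replicate 3 had the highest value in each. Tbx5, a regulator of heart and lung development, had 7, 10 and 3687 counts in Bahd1-KO embryos, compared with 5, 8 and 2 in Bahd1-WT embryos. Gata6, a factor of endoderm and heart, had 38, 50 and 3384 against 41, 28 and 49, and Foxf1, a factor of lung and gut mesenchyme, had 70, 77 and 3832 against 82, 102 and 97. The cell-cycle inhibitor Cdkn2b had 25, 33 and 310 against 33, 25 and 24. Hoxa7, a trunk patterning gene, had 0, 0 and 162 against 2, 0 and 1, and Pax9, a factor of the pharynx and skeleton, had 0, 1 and 38 against 1, 0 and 0. In these genes the high count was that of 1 library.

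**Figure D5:**
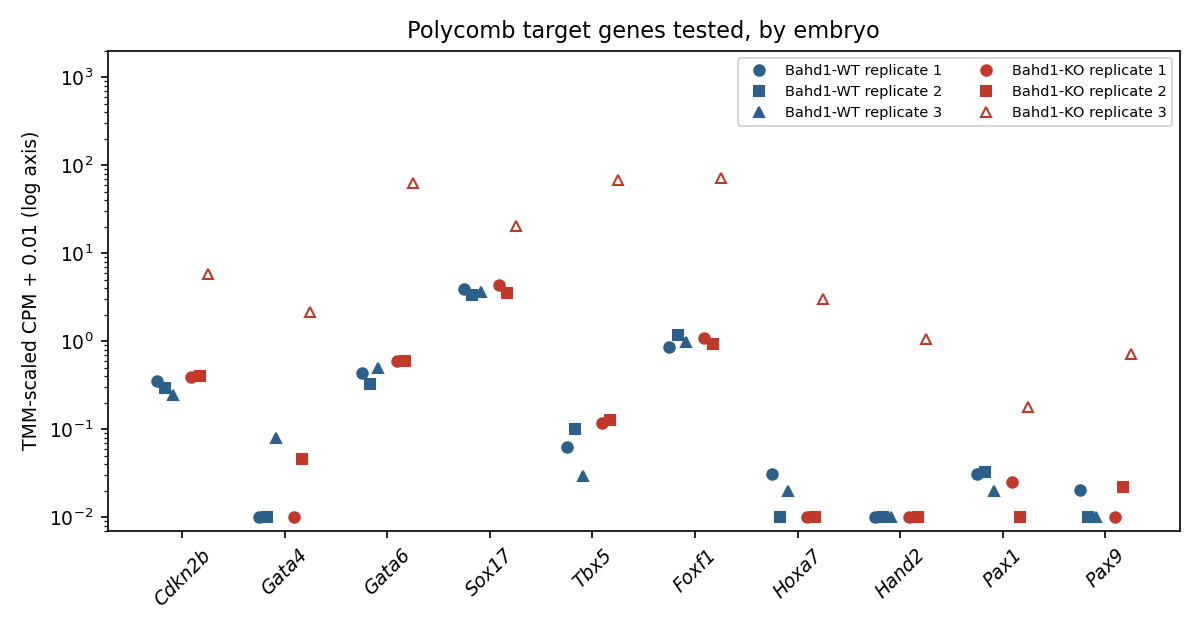
Level of the Polycomb target genes in each embryo (TMM-scaled CPM plus 0.01, log axis), with genotypes marked apart. Bahd1-KO replicate 3 lies above the other 5 embryos for Tbx5, Gata6 and Foxf1, and Bahd1-KO replicates 1 and 2 lie near Bahd1-WT.

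The fitted change was 2.90 ± 1.13 (SE) for Cdkn2b, 4.62 ± 1.70 for Foxf1, 5.69 ± 1.91 for Gata6 and 8.70 ± 2.77 for Tbx5 on the log2 scale, each with an adjusted p of 0.696 (edgeR) and with unadjusted p-values from 0.0159 to 0.0361. Of all genes, 4.67% had an unadjusted p under 0.05. Sox17 had 287, 299 and 1095 against 374, 291 and 370 counts (1.37 ± 0.688), and Gata4 had 0, 3 and 114 against 0, 0 and 7. Hand2 had 57 counts in Bahd1-KO replicate 3 and 0 in every other embryo. Pax1 had 1, 0 and 9 against 2, 2 and 1. Without replicate 3, the 6 genes that could be tested had changes above 0 for 4 and below 0 for 2, with 0 at an unadjusted p under 0.05 and a median of 0.26 against -0.01 over all genes. For Cdkn2b, Gata6 and Tbx5 the genotypes did not overlap, with all embryos or without replicate 3. In the latter case these were 3 of 6 against 10.7% of all genes, at log2 changes of 0.41 ± 0.352, 0.50 ± 0.335 and 1.05 ± 0.654 (SE; adjusted p = 0.981 for each, edgeR). Raw counts of these 3 genes did overlap between genotypes without replicate 3, as in Tbx5 with 7 and 10 against 5, 8 and 2. Their levels were low and separated only after scaling by library, as in Tbx5 with 0.107 and 0.118 CPM against 0.0522, 0.0907 and 0.0198. The summed lung, muscle and connective tissue markers are also highest in Bahd1-KO replicate 3, and their part in its values was not tested. The remaining 6 genes, Cdkn2a, Hoxa9, Nkx2-5, Hand1, Hoxc9 and Hoxd11, had sums of 1 to 9 counts over all embryos.

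Genes whose levels followed those of Ezh1 and Ezh2 most closely over the 6 embryos were found by the root mean square difference of centred log2 levels. The search covered 13753 protein-coding genes with a mean level of at least 1 CPM. For Ezh1 the closest were Kcnip2, Gdpgp1, Dnah9, AW011738 and Irs2, at 0.042 to 0.059 against a median of 0.43 over all genes compared. For Ezh2 they were Nfib, E330009J07Rik, Vrk1, Xndc1 and Dcaf13, at 0.042 to 0.079 against 0.47. Nfib, a factor of neuron and glia development, was at 829, 573 and 490 CPM in Bahd1-KO embryos, compared with 617, 596 and 708 CPM in Bahd1-WT embryos. With 6 embryos and so many genes some likeness is found for any gene, and this is a description with no test that includes Bahd1-KO replicate 3.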

How the data were processed

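Per the labels and the study's methods, the authors extracted total RNA from E16.5 brains, built stranded polyadenylated RNA libraries, trimmed reads with cutadapt 1.11, aligned them to GRCm38 and counted reads per Ensembl gene with featureCounts 1.4.6-p3. STAR 2.5.0a is named for the alignment, and TopHat2 is also named for a paired-end run whose libraries are not given. The deposited values are raw read counts, with no normalization or filter. Groups and replicate numbers came from the sample titles.

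Genes that summed to 10 counts or more were tested with edgeR 4.0.16 (R 4.3.3) by its quasi-likelihood test, two-sided, with TMM factors, genotype as the single term and Benjamini-Hochberg adjustment over all genes tested. Standard errors were computed back from the fold change and the F statistic of the same test. The 95% intervals used these errors and the test's degrees of freedom, so that neither adds to the p-value. Exon lengths, GC content and positions came from GENCODE M21, which matched 53706 genes (99.8%). The script was tested on simulated data with less spread between replicates than these embryos and no outlier library. That test checked the code and not the power to find changes here.

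The members and all gene lists were chosen with earlier results of these data known. Named were all members, Bahd1, other Polycomb genes and targets past the adjusted threshold, with an unadjusted p under 0.05 or among the 3 highest and 3 lowest changes, every paralog except 1 gene that is not reported here, and the 5 genes most like Ezh1 and Ezh2. Beyond the fit described, 21 alternatives were run, with DESeq2 1.42.0 and limma 3.58.1 among the tools, and 6 of them were chosen after seeing the data, when the GC pattern and Bahd1-KO replicate 3 were known. Intervals are those of the fitted fold change between genotypes and not of the values of single embryos.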

Additional observations from a re-analysis of the deposited data

How the results depend on the processing

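No member passed the adjusted threshold under any of 21 alternatives, 6 of them chosen after seeing the data (lowest adjusted p = 0.34, edgeR and limma fits included). Of 210 member values, 44 changed sign, and the cause was not tested. All genes called, 1 in the fit described, were 8 by DESeq2, 6 by voom with embryo quality weights, 0 with ribosomal, mitochondrial and small RNA genes left out, and 0 to 4 with 1 embryo left out (4 without Bahd1-KO replicate 3). With that embryo left out they were 11 by DESeq2, 4 with total counts and 6 with the GC correction. Bahd1 itself kept its direction in all 21 and was called in 13. The count of members at an unadjusted p under 0.05 was 1 with voom (Bmi1, unadjusted p = 0.0409, limma). Of all genes, 1156 had such a p in the fit described, 96.5% of them higher in Bahd1-KO, against 2213 with 33.4% higher by voom and 4878 with 60.8% higher without Bahd1-KO replicate 2. The median of the members was 0.12 with upper-quartile factors and -0.14 with total counts, and ran from -0.17 to 0.050 with 1 embryo left out, while the median of all genes was 0.17 and -0.11 with the first 2.

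Whether replicate numbers pair the embryos was not tested. Same-numbered embryos correlated at 0.26, 0.34 and -0.12 in their deviations from the genotype mean, which included Bahd1-KO replicate 3. Replicate 1 of each genotype was the best match of the other, whereas Bahd1-KO replicate 2 correlated best with Bahd1-WT replicate 3 (0.38). With the replicate block 0 genes were called, and 0 with the block and GC correction. With the block and Bahd1-KO replicate 3 left out, 16 were called, and 1 member (Bmi1, unadjusted p = 0.0106, edgeR) was under 0.05. Of all 23334 genes tested in that last fit, 2171 had an unadjusted p under 0.05, so that such a p was common there.

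Reversed log2 values were, with total counts, -0.18 for Ezh1 and -0.10 for Cbx7, and with voom -0.11 for Ezh1, 0.19 for Ezh2, 0.28 for Rnf2, -0.37 for Cbx7 and -0.68 for Pax1. For Ezh2 and Rnf2 they were 0.032 and 0.035 with filterByExpr, 0.0027 and 0.0029 with DESeq2 size factors and with the DESeq2 test, and 0.11 and 0.10 with upper-quartile factors. With DESeq2 and Bahd1-KO replicate 3 left out they were -0.054 for Ezh1, 0.13 for Ezh2, 0.15 for Rnf2, -0.24 for Cbx7 and -0.017 for Foxf1, and with total counts and that embryo left out -0.030, 0.14, 0.17 and -0.22 for the first 4. With the block and that embryo left out they were -0.13 for Ezh1, 0.23 for Ezh2, 0.15 for Rnf2, -0.30 for Cbx7, 0.040 for Cbx8, -0.049 for Asxl2 and -0.033 for Foxf1. The GC correction gave -0.026 for Bmi1 and 0.083 for Cbx2 and, with the block, -0.068 and 0.073. With the GC correction and that embryo left out, Cbx2 was 0.15, Cbx8 0.22, Aebp2 -0.042 and Asxl2 -0.020. With 1 embryo left out at a time, values ran from -0.068 to 0.12 for Ezh1, -0.24 to 0.13 for Ezh2, -0.21 to 0.15 for Rnf2, -0.13 to 0.41 for Bmi1, -0.24 to 0.45 for Cbx7 and -0.017 to 5.18 for Foxf1.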
